A study of Mus musculus with 16 samples.

Results

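The genes described here encode subunits that are particular to variant forms of Polycomb repressive complex 1 (PRC1), measured in mouse embryonic stem (ES) cells with and without Rybp, a subunit shared by these variant forms. They are Pcgf1, Kdm2b and Bcor of the PCGF1 complex, Pcgf3 and Pcgf5 of the PCGF3/5 complexes, and Pcgf6, Mga, Max, E2f6 and L3mbtl2 of the PCGF6 complex. All probe sets of the deposited value table that the platform annotation assigns to these genes were taken, whatever their values. This gave 24 of the 45101 probe sets on the array and 10 of 18193 named genes. Mga had 5 probe sets, Pcgf3, Pcgf5, Pcgf6 and Bcor had 3 each, Kdm2b and E2f6 had 2 each, and Pcgf1, Max and L3mbtl2 had 1 each.

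ES cells are pluripotent cells grown from the early embryo, here of a 129/B6 hybrid background. KO cells were given 4-hydroxytamoxifen (OHT) at 800 nM for 24 hours to remove Rybp and are labelled Rybp-KO (OHT+), and WT cells are the untreated cells of the same clones, labelled as wild-type controls (OHT-). The groups were KO at day 4, WT at day 4, KO at day 12 and WT at day 12, with 4 arrays each, made of replicates 1 and 2 of clone 10 and of clone 15. The labels name neither the Rybp allele nor the enzyme that OHT acts on, each line is a single clone, and no WT array received OHT, so effects of OHT and of Rybp loss cannot be told apart. Cells grew on irradiated fibroblast feeders or on gelatin, and the labels do not say which array had which. Nothing in the labels states that replicates 1 and 2 came from separate cultures, and the p-values therefore cover array-to-array spread that may be technical only.

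PRC1 is the Polycomb complex that adds ubiquitin to histone H2A through the RING1A or RING1B ligase. Each PRC1 form holds 1 of a family of PCGF proteins, which sets the other subunits and so where on the genome the complex sits. Variant forms carry RYBP or its relative YAF2 in place of the CBX proteins of canonical PRC1. In ES cells the PCGF1 form is known for binding CpG islands and the PCGF6 form for keeping germline genes silent.

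The deposited values are microarray intensities on a linear scale, and levels are given in that unit. The level of 1 probe set cannot be set against that of another. The table median was 93.3, and 6 of the 24 probe sets had a mean below it and are called dim here. The probe set of Rybp that also carries the name of its pseudogene (1421111_at) fell to between 84.9 and 125 in KO cells at day 4, against between 2047 and 3319 in WT cells, and to between 109 and 256 in KO cells at day 12, against between 2749 and 3434 in WT cells. Its log2 fold changes were -4.81 ± 0.25 and -4.09 ± 0.25 (limma adjusted p = 8.43e-07 and 4.1e-06). A second probe set with both names (1428219_at) had higher values in all KO arrays than in all WT arrays. It had 4443, 7612, 4374 and 7579.9 in KO cells at day 4, against 2127 and 2771 in WT cells of clone 10 and 297 and 255 in those of clone 15. At day 12 it had 2815, 4227, 4606 and 5148 in KO cells, against 1404 and 2108 in WT cells of clone 10 and 157 and 170.4 in those of clone 15. Its log2 fold changes over both clones were 2.82 ± 0.74 and 2.95 ± 0.74 (limma adjusted p = 0.256 and 0.0902). The 10 ES cell markers summed to between 104783 and 138758 on every array. Dppa5a alone held 41654.5 to 52569.6, so the sum says little of the dimmer markers. Zfp42 had 2289 to 3157 in arrays of clone 15 and 6486 to 9896 in those of clone 10. At day 12 Utf1 (1416899_at) averaged 5400 in KO cells and 9493 in WT cells, while Klf4 (1417394_at) averaged 2929 and 1925. In the fit without a block, 0 of the 16 ES cell marker probe sets passed the test between KO and WT cells on either day. With KO and WT arrays of the same clone, day and replicate number paired as a block, 1 was lower in KO cells at day 12. The median log2 fold change of the 10 genes was -0.01 at day 4 and -0.16 at day 12. The 11 fibroblast markers summed to at most 2833.

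In the main fit, which has no block for replicate number, 0 of the variant PRC1 subunits passed the test between KO and WT cells. E2f6 passed at day 12 with 1 probe set a gene, a floor, an offset or trended moderation, all without a block. Fits that use the replicate numbers also called E2f6 and, in some, Mga or L3mbtl2. At day 4, 0 of the 24 probe sets passed the test between KO and WT cells, where 0.242% of all probe sets passed. At day 12 the count was again 0 of 24, where 1.21% of all probe sets passed. With the 8 pairs of KO and WT arrays of the same clone, day and replicate number as a block, 0 of 24 passed at day 4 and 1 of 24, E2f6, at day 12, where 0.204% and 2.30% of all passed. With replicate number as a term the counts were 1 and 3 of 24, where 0.575% and 5.01% of all passed. The test was limma on log2 intensity over 45037 probe sets, and a change was called at a Benjamini-Hochberg adjusted p under 0.05. At an unadjusted p under 0.05 the test took in 2 of the 24 at day 4 and 4 of the 24 at day 12, against 6.79% and 11.0% of all probe sets. The 4 at day 12 were E2f6 1448835_at and Pcgf5 1429564_at, with higher values in KO cells, and Mga 1434746_at and the dim Pcgf5 1453636_at, with lower values. At day 4, 0 of the 24 had all KO arrays above or all below the WT arrays, as 2.35% and 1.92% of all probe sets had. At day 12, 3 of the 24 had all KO arrays above (5.30% of all) and 2 all below (4.10% of all). KO was the higher in 8 of 8 pairs for 2 of the 24 (4.20% of all) and the lower for 3 (3.93% of all). The median log2 fold change of the 24 was -0.06 on both days, beside -0.01 and -0.02 over all probe sets.

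**Figure D1:**
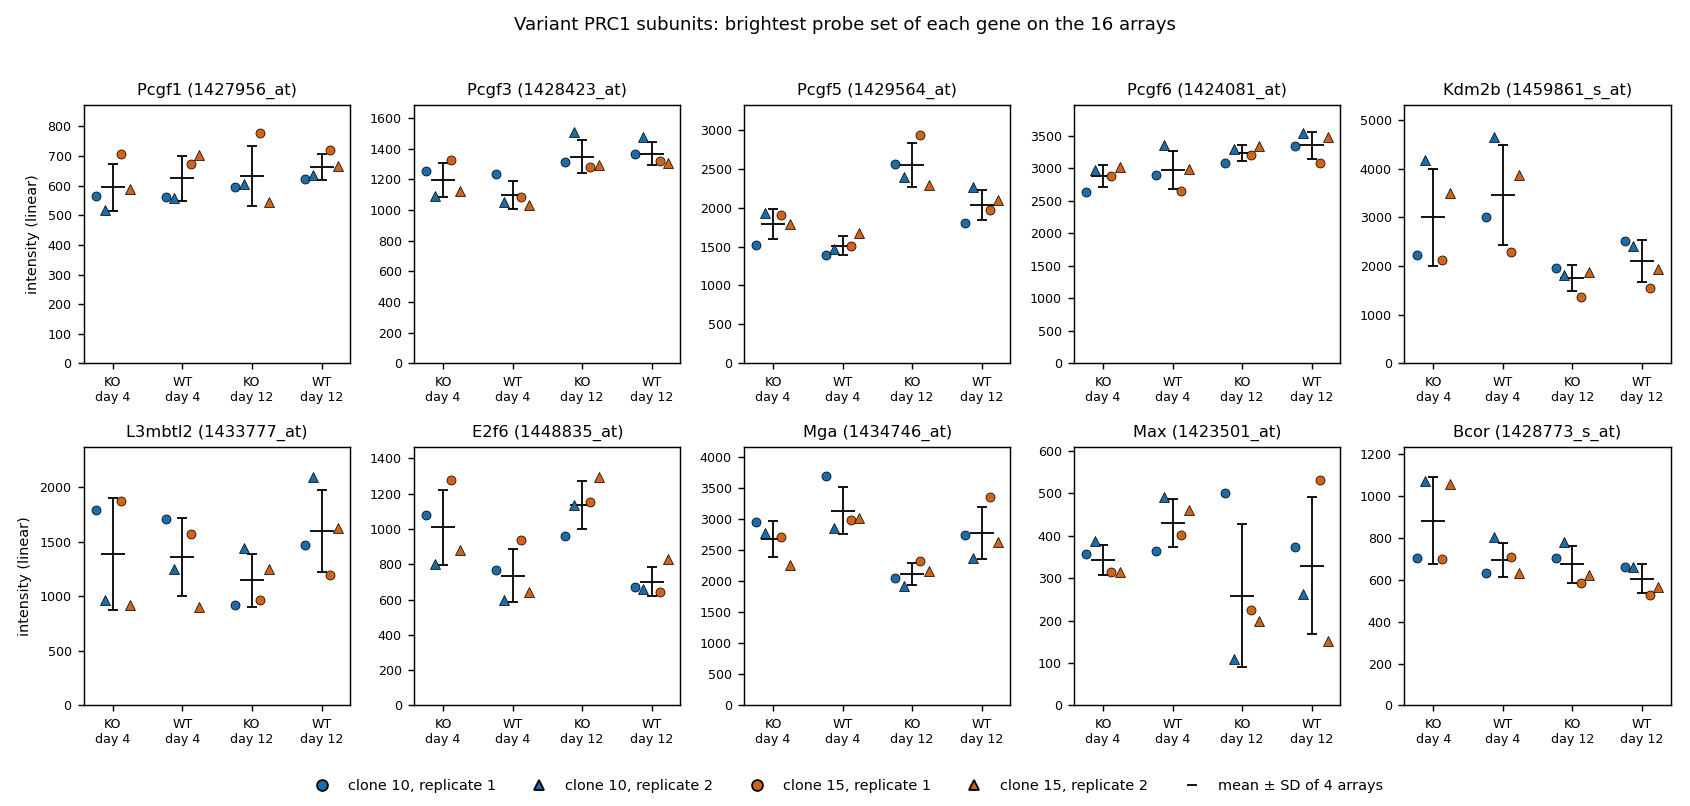
Intensity of the brightest probe set of each of the 10 genes on the 16 arrays (linear scale from 0), in KO and WT cells at day 4 and day 12. Points are single arrays, coloured by clone and shaped by replicate number, and bars are the mean ± SD of 4 arrays. At day 12 the KO arrays of E2f6 and Pcgf5 lie above all WT arrays and those of Mga lie below them.

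E2f6 encodes an E2F transcription factor that lacks the activating region of its relatives and acts as a repressor with a DP partner protein. At day 4 its brightest probe set (1448835_at) had intensities of 1081, 803, 1276 and 878 in KO cells, against 765, 597, 939 and 643 in WT cells (clone 10 replicates 1 and 2, then clone 15 replicates 1 and 2, here and in the lists that follow). Its day 12 intensities were 961, 1135, 1153 and 1293 in KO cells, against 673, 662, 645 and 827 in WT cells. The groups overlapped at day 4, at day 12 every KO array lay above every WT array, and KO was the higher of each of the 8 pairs of arrays that share clone, day and replicate number. Of all probe sets, 5.30% had all KO arrays above all WT arrays at day 12, and 4.20% were higher in KO cells in 8 of 8 pairs.

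The log2 fold change of this E2f6 probe set was 0.45 ± 0.18 at day 4 (SE, limma adjusted p = 0.615) and 0.69 ± 0.18 at day 12 (limma adjusted p = 0.0999, unadjusted p = 0.00198). The change at day 12 was 1.62-fold with a 95% interval of 1.24 to 2.12. It passed the threshold when only 1 probe set a gene was tested (limma adjusted p = 0.0447, with 3.07% of 18193 genes called), with the 8 pairs as a block (0.0192), and in 4 of the other settings tried. With both together the limma adjusted p was 0.0488 at day 4 and 0.00459 at day 12, where 0.973% and 8.11% of genes were called. None of the 16 fits without 1 array called it. The levels, as mean ± SD of 4 arrays, ran in the order 1135 ± 136 in KO cells at day 12, 1010 ± 213 in KO cells at day 4, 736 ± 153 in WT cells at day 4 and 702 ± 84.4 in WT cells at day 12, and each neighbouring pair in that order overlapped between arrays.

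The other E2f6 probe set (1437914_at) was dim. It had 88.9, 89.1, 75.0 and 111 in KO cells at day 12, against 30.4, 67.0, 50.2 and 27.6 in WT cells, again without overlap. Its log2 fold change was 1.14 ± 0.56 (limma adjusted p = 0.496), and at day 4 it was 0.40 ± 0.56 (limma adjusted p = 0.999) with overlapping arrays. Both E2f6 probe sets thus had higher values in KO cells at day 12, and neither passed in the main fit, which has no block. Also without a block, 1448835_at passed with a floor at the 25th percentile (limma adjusted p = 0.0372), an offset of 50 (0.0433) or trended moderation (0.0334).

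Mga encodes the large scaffold of the PCGF6 complex, a protein with a T-box and a second DNA-binding region that pairs with MAX on E-box sequences. Its brightest probe set (1434746_at) had 2947, 2773, 2710.4 and 2266 in KO cells at day 4, against 3686, 2856, 2982 and 3020.1 in WT cells. At day 12 it had 2052, 1916, 2324 and 2156 in KO cells, against 2737, 2365, 3349 and 2629.8 in WT cells. The groups overlapped at day 4 and were apart at day 12, where 4.10% of all probe sets had every KO array below every WT array. KO was the lower in 8 of 8 pairs, as for 3.93% of all probe sets. The log2 fold changes were -0.23 ± 0.15 (limma adjusted p = 0.902) and -0.38 ± 0.15 (limma adjusted p = 0.35). The day 12 value passed the threshold with 1 probe set a gene and the 8 pairs as a block together (limma adjusted p = 0.0425), and with neither alone (0.198 and 0.114).

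The second Mga probe set (1431232_a_at) had 1472, 2112, 1550.3 and 2575 in KO cells at day 12, against 1769.7, 3314, 2052 and 3368 in WT cells. These groups overlapped, though KO was the lower in each of the 4 pairs at day 12, and the log2 fold change was -0.43 ± 0.26 (limma adjusted p = 0.616, and 0.0271 with replicate number as a term). The remaining Mga probe sets were 1422646_at, with means between 263 and 352 in the 4 groups, and the dim 1442356_at and 1433012_at. Their log2 fold changes at day 12 were -0.08 ± 0.39, -0.01 ± 0.30 and -1.30 ± 0.94, with limma adjusted p-values of at least 0.7.

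Max encodes the small partner protein through which MYC, MGA and related factors bind DNA. Its 1 probe set (1423501_at) averaged 343 ± 35.7 in KO cells and 429 ± 56.7 in WT cells at day 4 (SD, n = 4 each). At day 12 the arrays were widely spread, with 501, 110, 225 and 198 in KO cells, against 373, 263, 531 and 151 in WT cells. KO and WT arrays overlapped on both days. Log2 fold changes of this probe set were -0.32 ± 0.43 and -0.42 ± 0.43 (limma adjusted p = 0.999 and 0.811), and the 95% interval at day 12 reached from 0.395-fold to 1.42-fold.

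L3mbtl2 encodes an MBT-domain protein of the PCGF6 complex that compacts chromatin. Its 1 probe set (1433777_at) had 1794, 963, 1869 and 925 in KO cells at day 4, against 1709, 1248, 1574 and 906 in WT cells. At day 12 it had 919, 1444, 970.3 and 1249 in KO cells, against 1472, 2089, 1195 and 1626 in WT cells. The arrays overlapped on both days, and at day 12 KO was the lower in each of the 4 pairs. The log2 fold changes were -0.01 ± 0.29 and -0.47 ± 0.29 (limma adjusted p = 0.999 and 0.621, the day 12 value 0.047 with replicate number as a term).

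Pcgf6, the PCGF protein that defines this complex, had almost the same level in KO and WT cells within each day. Its brightest probe set (1424081_at) averaged 2879 ± 169 in KO cells and 2976 ± 293 in WT cells at day 4, and 3235 ± 120 in KO cells and 3359 ± 206 in WT cells at day 12 (SD, n = 4 each). The day 12 difference was 0.964-fold with a 95% interval of 0.807 to 1.15 (limma adjusted p = 0.936). The other probe sets, 1454120_a_at and 1432108_at, had log2 fold changes of -0.04 ± 0.35 and -0.07 ± 0.21 at day 12.

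**Figure D2:**
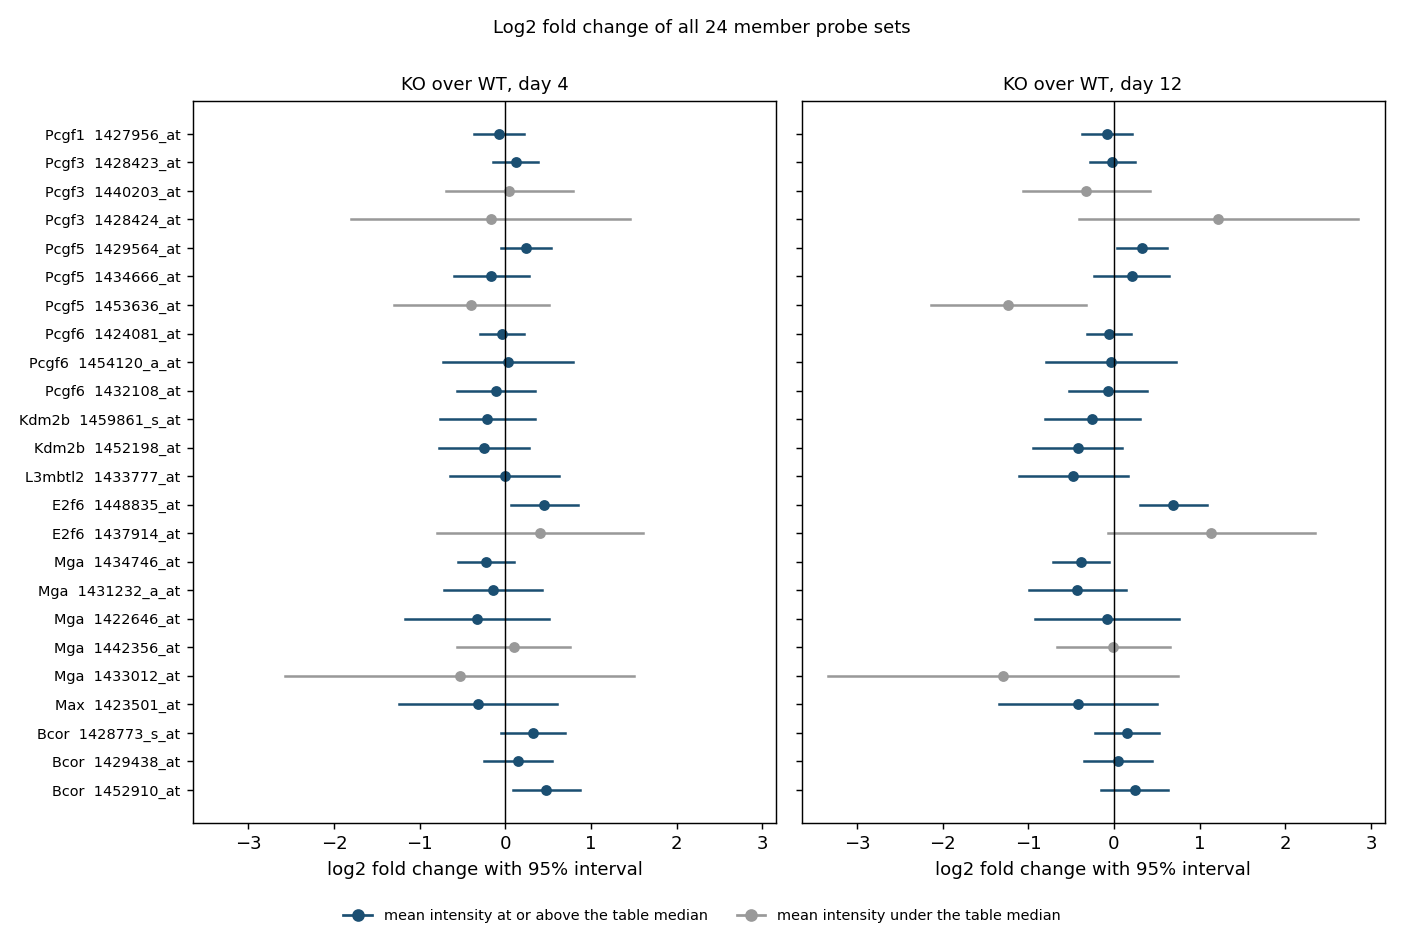
Log2 fold change of KO over WT for all 24 member probe sets at day 4 (left) and day 12 (right), with 95% intervals from limma. Grey marks the 6 dim probe sets, whose intervals are mostly wide. At day 12 the intervals of E2f6 1448835_at and Pcgf5 1429564_at lie above 0 and those of Mga 1434746_at and Pcgf5 1453636_at below it, at day 4 those of E2f6 1448835_at and Bcor 1452910_at lie above it, and 0 of the 24 passed the adjusted threshold in this fit without a block.

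Pcgf5 and Pcgf3 encode close relatives that build complexes with AUTS2 or fibrosin proteins. The brightest Pcgf5 probe set (1429564_at) had 1518, 1929, 1909 and 1792 in KO cells at day 4, against 1394, 1470, 1505 and 1675 in WT cells. At day 12 it had 2555, 2397, 2938 and 2295 in KO cells, against 1808, 2265, 1966 and 2093 in WT cells. The groups overlapped at day 4 and were apart at day 12, and KO was the higher in 8 of 8 pairs. The log2 fold changes were 0.24 ± 0.13 and 0.32 ± 0.13 (limma adjusted p = 0.852 and 0.387).

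The other Pcgf5 probe sets shared this pattern in part or not at all. Probe set 1434666_at had log2 fold changes of -0.16 ± 0.20 at day 4, where KO was higher in 0 of 4 pairs, and 0.21 ± 0.20 at day 12, where KO was higher in 4 of 4 (limma adjusted p = 0.997 and 0.799). The dim probe set 1453636_at had 28.3, 17.9, 72.2 and 70.1 in KO cells at day 12, against 88.7, 102, 114 and 75.6 in WT cells. Its log2 value for KO over WT was -1.23 ± 0.42 (limma adjusted p = 0.25), with every KO array below every WT array, opposite in direction to the bright probe set. At day 12 both brighter probe sets of Pcgf5 thus had the higher values in KO cells, and the dim one had the lower. As they disagree and none passed, no direction is given for the gene.

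For Pcgf3 the arrays of KO and WT cells overlapped on both days. Its brightest probe set (1428423_at) averaged 1198 ± 110 in KO cells and 1100 ± 90.9 in WT cells at day 4, and 1349 ± 106 in KO cells and 1367 ± 75.9 in WT cells at day 12 (SD, n = 4 each). Within pairs KO was the higher in 4 of 4 at day 4 and in 1 of 4 at day 12. KO over WT, the log2 values were 0.12 ± 0.12 and -0.02 ± 0.12 (limma adjusted p = 0.986 and 0.98). The other 2 Pcgf3 probe sets were dim, with group means between 9.52 and 80.1, and overlapped on both days.

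Kdm2b encodes the histone demethylase whose zinc finger binds unmethylated CpG and brings the PCGF1 complex to CpG islands. Its brightest probe set (1459861_s_at) had 2220.4, 4165, 2128 and 3503 in KO cells at day 4, against 3010.1, 4654, 2279 and 3859 in WT cells. At day 12 it had 1949, 1808, 1362 and 1877 in KO cells, against 2509, 2400.4, 1553 and 1939 in WT cells. Groups overlapped on both days because arrays of 1 group differed widely, and within pairs KO was the lower in 8 of 8. The second probe set (1452198_at) was likewise lower in KO cells in 8 of 8 pairs. The log2 fold changes were -0.21 ± 0.25 and -0.25 ± 0.25 for the first, and -0.25 ± 0.24 and -0.42 ± 0.24 for the second, with limma adjusted p-values between 0.578 and 0.996.

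Bcor encodes the BCL6 corepressor, a scaffold of the PCGF1 complex. Its brightest probe set (1428773_s_at) had 701, 1068, 699.6 and 1056 in KO cells at day 4, against 629.6, 802, 707 and 629 in WT cells. The day 4 log2 fold changes of its 3 probe sets were 0.33 ± 0.17, 0.15 ± 0.18 and 0.48 ± 0.18, and those at day 12 were 0.15 ± 0.17, 0.05 ± 0.18 and 0.24 ± 0.18. All 6 values were positive, KO and WT arrays overlapped each time, and the lowest limma adjusted p was 0.576 (1452910_at at day 4). Pcgf1, the PCGF protein of the same complex, averaged 594 ± 80.4 in KO cells and 625 ± 75.0 in WT cells at day 4, and 632 ± 102 in KO cells and 662 ± 43.9 in WT cells at day 12 (SD, n = 4 each). Its differences were 0.950-fold (95% interval 0.777 to 1.16) and 0.947-fold (0.775 to 1.16).

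**Figure D3:**
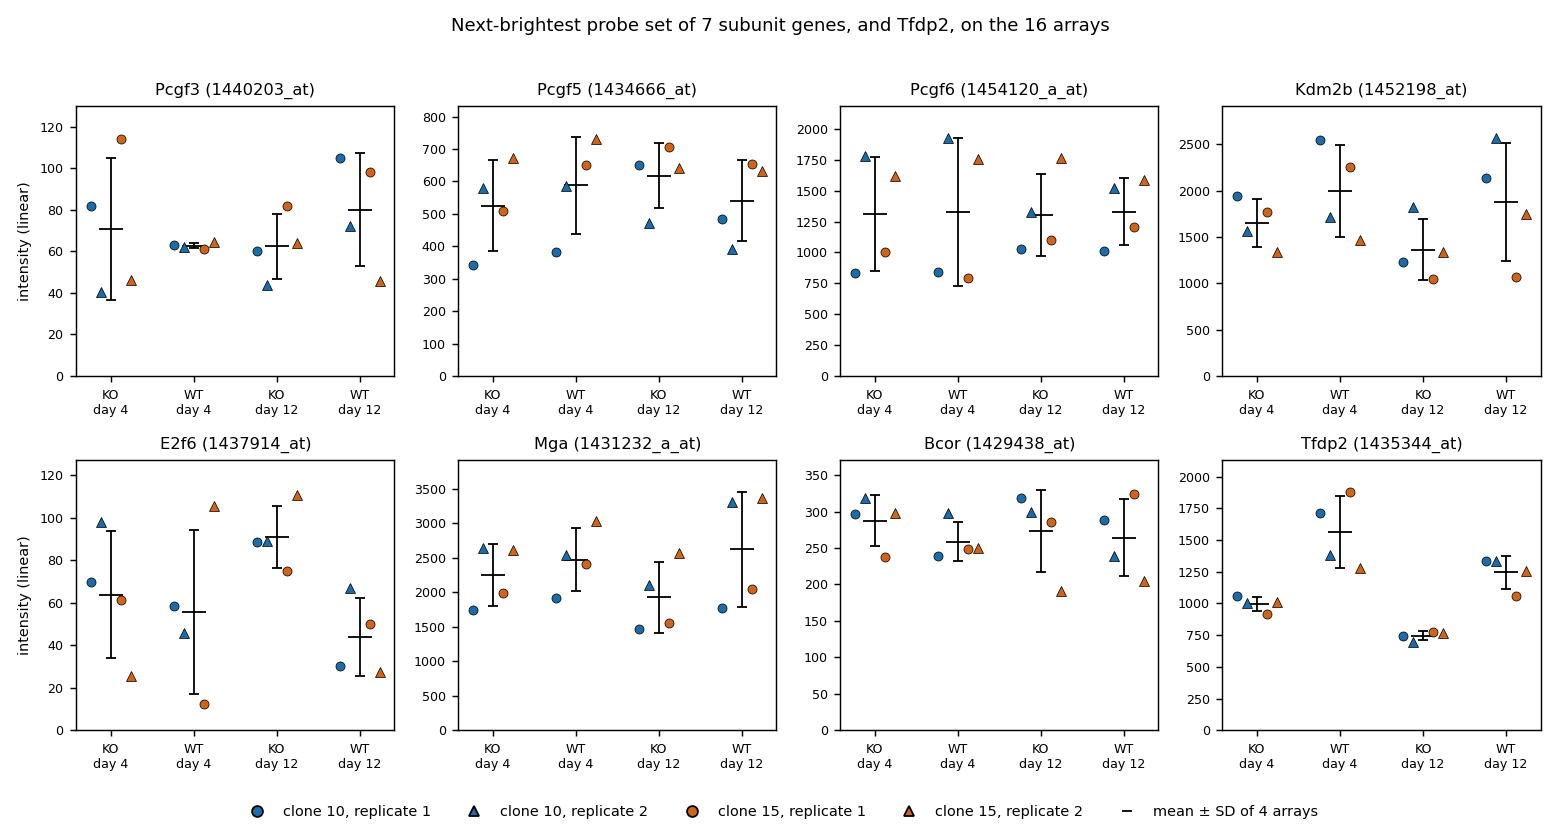
Intensity of the next-brightest probe set of the 7 subunit genes that have more than 1, and of Tfdp2 (1435344_at), on the 16 arrays (linear scales from 0). Symbols are as in the plot of the brightest probe sets, with mean ± SD of 4 arrays. The KO arrays of E2f6 at day 12 lie above the WT arrays, those of Tfdp2 lie below the WT arrays on both days, and the other panels show overlap between KO and WT arrays.

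The KO effect did not pass the test for a difference between days in any of the 24 probe sets, and 0 of 45037 probe sets passed it anywhere (limma, 0%). At an unadjusted p under 0.05 it took in 0 of the 24 and 4.13% of all probe sets. For E2f6 1448835_at the day 12 effect minus the day 4 effect was 0.24 ± 0.25.

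The days were also compared within KO and within WT cells. Between day 12 and day 4, 0 of the 24 probe sets passed in KO cells, where 1.22% of all did, and 0 of the 24 passed in WT cells, where 0.402% did. With replicate number as a term 2 of the 24 passed in KO cells and 1 in WT cells. At an unadjusted p under 0.05 the count was 3 of the 24 in each, against 12.9% of all in KO cells and 11.5% in WT cells. Kdm2b 1459861_s_at averaged 1749 ± 264 at day 12 and 3004 ± 996 at day 4 in KO cells, and 2100.4 ± 441 at day 12 and 3450.3 ± 1030 at day 4 in WT cells (SD, n = 4 each). The log2 differences were -0.73 ± 0.25 in KO cells (limma adjusted p = 0.214) and -0.69 ± 0.25 in WT cells (limma adjusted p = 0.315). In KO cells all day 12 arrays lay below all day 4 arrays, as for 4.12% of all probe sets, while WT arrays overlapped.

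For Pcgf5 1429564_at the day 12 arrays had the higher values, with log2 differences of 0.51 ± 0.13 in KO cells (limma adjusted p = 0.0969) and 0.43 ± 0.13 in WT cells (limma adjusted p = 0.235). Day 12 arrays lay above day 4 arrays without overlap in both, as for 5.18% of all probe sets in KO cells and 3.54% in WT cells. Pcgf6 1424081_at (0.17 ± 0.12) had the same separation in KO cells, and Pcgf3 1428423_at (0.32 ± 0.12, limma adjusted p = 0.335) had it in WT cells, where 0 of the 24 had all day 12 arrays below the day 4 arrays (3.64% of all). The brightest probe sets of Kdm2b, Pcgf5 and Pcgf3 thus had differences between days whose size was close to or above their differences between KO and WT cells. Kdm2b 1452198_at did not share this, at -0.30 ± 0.24 in KO cells and -0.12 ± 0.24 in WT cells between days.

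Markers of primitive endoderm, an early extraembryonic cell type, moved with the days. Of 17 probe sets for 7 genes, 14 were higher at day 12 than at day 4 in KO cells and 5 in WT cells (limma), where 0.868% and 0.302% of all probe sets were. With arrays of the same clone, treatment and replicate number as a block, 7 were higher in KO cells and 3 in WT cells. In that fit 182 and 46 of all 45037 probe sets passed in either direction. The summed level of the 7 genes was 5193 to 9371 in KO cells and 3335 to 4949 in WT cells at day 12, against 467 to 1035 in KO cells and 482 to 1097 in WT cells at day 4. Between KO and WT cells 0 of the 17 passed on either day, though the summed levels at day 12 did not overlap. Fewer cells of a type and less RNA per cell cannot be told apart in such bulk samples, and the part of these cells in the members' differences was not tested. The transferrin receptor control, read as log2 of its 3′ over its 5′ probe set, was 0.20 ± 0.14 higher in KO cells at day 4 (SD of 4 pairs, higher in 4 of 4) and -0.02 ± 0.10 at day 12. Its part in the day 4 values was not tested.

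The clones gave no called difference in the members. The KO effect in clone 15 minus that in clone 10 passed limma in 0 of the 24 probe sets at day 4 and at day 12, where 0.00222% and 0% of all probe sets passed. WT cells of clone 15 against WT cells of clone 10 gave 0 of 24 on both days, where 0.00888% and 0% of all passed. The lowest unadjusted p among the KO effects was that of the dim Pcgf5 1453636_at at day 12 (0.0268), with a difference of 1.69 ± 0.65 between clones.

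Several members also differed between arrays numbered 1 and 2. At day 4 the 4 arrays numbered 2 lay above the 4 arrays numbered 1 for 5 member probe sets, where 12.4% of all probe sets did so, and below them for 2, where 12.1% did so. For Pcgf6 1454120_a_at the arrays numbered 2 held 1621 to 1925 and those numbered 1 held 790 to 1006, a 2.05-fold difference within which KO and WT cells were mixed. Kdm2b 1459861_s_at had 3503 to 4654 in arrays numbered 2, against 2128 to 3010.1 in arrays numbered 1. L3mbtl2 went the other way, with 906 to 1248 in arrays numbered 2, against 1574 to 1869 in arrays numbered 1.

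The probe sets of 1 gene did not always follow replicate number alike. Kdm2b 1452198_at had 1342 to 1710 in the day 4 arrays numbered 2, against 1769 to 2548 in those numbered 1, opposite to the other Kdm2b probe set. At day 12 the arrays numbered 2 stood above those numbered 1 for 3 member probe sets, Pcgf6 1454120_a_at, Mga 1431232_a_at and Mga 1422646_at, where 4.03% of all did so, and 0 of the 24 stood below, where 4.25% did so. Control probe sets moved with the numbers too. At day 4 the log2 ratio of 3′ over 5′ signal was 0.156 to 0.872 in arrays numbered 2, against 1.27 to 1.84 in arrays numbered 1, for pyruvate carboxylase, and -0.37 to -0.29 against -0.28 to -0.21 for Gapdh. Those of actin and the transferrin receptor overlapped, as did all 4 at day 12. What the numbers stand for is not given in the labels, and the part of RNA quality in the members' differences was not tested.

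**Figure D4:**
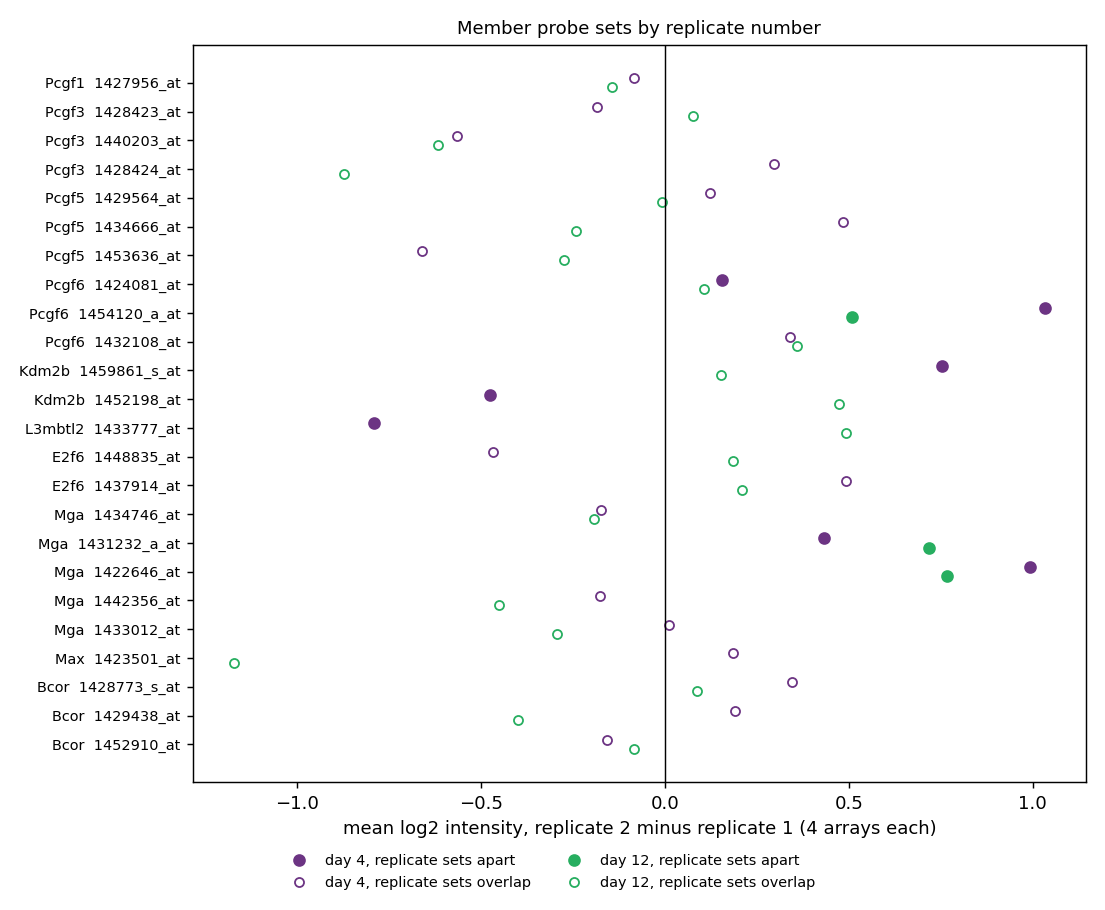
Mean log2 intensity of the 4 arrays numbered 2 minus that of the 4 arrays numbered 1, for each member probe set at day 4 (purple) and day 12 (green). Filled points mark probe sets whose arrays did not overlap between the numbers. At day 4 Pcgf6 1454120_a_at and Mga 1422646_at lie farthest to the right and L3mbtl2 1433777_at farthest to the left.

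Other parts of the pathway were described by lists of known genes. Of the 21 measured genes shared by variant PRC1 complexes or working with them, such as Ring1, Rnf2, Yaf2, Usp7 and the casein kinase subunits (66 probe sets), 0 passed at day 4. The lowest p-values there were those of Tfdp2 and Yaf2, the relative of Rybp, at 0.51 ± 0.17 (1429839_a_at, limma adjusted p = 0.476). At day 12, 3 probe sets fell and 0 rose, where 0.335% and 0.877% of all probe sets did so, and all 3 belong to Tfdp2. Tfdp2 encodes DP2, a dimer partner of E2F proteins, E2F6 among them. Its probe set 1435344_at had 743, 699.5, 774 and 767 in KO cells at day 12, against 1332, 1338, 1057 and 1259.9 in WT cells, with no overlap.

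The 3 Tfdp2 log2 fold changes at day 12 were -0.74 ± 0.15, -0.64 ± 0.14 and -0.70 ± 0.15 (limma adjusted p = 0.0318, 0.041 and 0.044), and the remaining Tfdp2 probe set was at -0.47 ± 0.28 (0.599). Leaving out single arrays kept the direction but ended the call in 7 of 16 fits for 1435344_at and in 14 of 16 for each of the others. With the 8 pairs as a block the limma adjusted p was 0.0507, 0.0406 and 0.0246. At day 4 the first probe set was at -0.63 ± 0.15 (limma adjusted p = 0.158), also without overlap, with 919.5 to 1056 in KO cells against 1279.6 to 1878 in WT cells.

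Of 11 canonical PRC1 genes (23 probe sets), 1 probe set rose at day 12 and 0 fell. It was Scml2 1456984_at, of a gene for an SCM-type Polycomb protein, at 2.42 ± 0.40 (limma adjusted p = 0.0108), while the other Scml2 probe set was at 0.59 ± 0.18 (0.185). The block of 8 pairs called 3 higher, Scml2 1456984_at and 2 probe sets of Phc2, a canonical subunit (0.75 ± 0.13 and 0.91 ± 0.14). In the MYC and MAX network (10 genes, 24 probe sets), 1 probe set fell at day 12 and 0 rose. It was Mnt 1418193_at, of a gene for a MAX-binding repressor, at -2.03 ± 0.35 (limma adjusted p = 0.0136). It was dim, with 6.49 to 19.3 in KO cells, all under the 25th percentile of the table (28.3), against 26.9 to 63.5 in WT cells. Raising low values to that percentile ended its call, as did 2 of 16 fits without 1 array, and the brighter Mnt probe set was at -0.32 ± 0.24 (0.726). The block of 8 pairs called 2 lower, Mnt and Mycn 1417155_at (-0.68 ± 0.11, limma adjusted p = 0.0294). Of the 7 other E2F genes (14 probe sets) 0 passed in either direction on either day, and the lowest limma adjusted p was 0.381. The lowest p-values among them at day 12 were those of E2f1 (-0.61 ± 0.25, limma adjusted p = 0.381) and E2f7 (-0.64 ± 0.30, 0.47), and the block of 8 pairs called both lower (0.0272 and 0.0482). At day 4 these 3 lists held 0 called probe sets, and Phc2 came closest at 0.97 ± 0.20 (limma adjusted p = 0.102), before Scml2 1421514_a_at at 0.76 ± 0.18 (0.161). Over the 21, 11, 10 and 7 genes of the lists the median log2 fold change was -0.04, -0.04, -0.21 and -0.01 at day 4 and -0.14, -0.14, -0.30 and -0.10 at day 12.

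Germline genes that the PCGF6 complex is known to keep silent in ES cells are the reported targets of MGA, MAX, E2F6 and L3MBTL2, and 16 such genes were measured with 18 probe sets. At day 4, 9 probe sets of 8 genes were higher in KO cells and 0 were lower, where 0.226% of all probe sets were called higher and 0.0155% lower. At day 12, 11 probe sets of 9 genes were higher and 0 were lower, where 0.877% of all were called higher. With the 8 pairs as a block, 10 probe sets were higher at day 4 and 11 at day 12, where 0.204% and 2.30% of all passed in either direction. The median log2 fold change of the 16 genes was 1.69 and 2.00. This list was drawn up with earlier results of these data known, so its direction is no independent evidence.

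Within the list, Mael, of the piRNA pathway, had 1763, 1797, 1782 and 1922 in KO cells at day 4, against 468, 371, 437 and 436 in WT cells, and 2188, 2319.6, 1942 and 2119 in KO cells at day 12, against 431, 327, 444 and 292 in WT cells. The log2 fold changes were 2.09 ± 0.16 and 2.54 ± 0.16 (limma adjusted p = 3.8e-05 and 4.1e-06). The germ cell helicase gene Ddx4 stood at 1.74 ± 0.20 and 1.93 ± 0.20, and Slc25a31, the testis ADP/ATP carrier gene, at 2.29 ± 0.31 and 3.12 ± 0.31. Dazl, Sycp1, Tex11, Sohlh2 and Tdrkh also rose on both days, and Stk31 was at 1.37 ± 0.30 (limma adjusted p = 0.134) and, past the threshold, 2.08 ± 0.30 (0.00538). Stag3, Smc1b, Sycp3, Hormad1, Taf7l, Tdrd1 and Tuba3b did not pass on either day, and they did not run alike. At day 12 Stag3 had 781 to 997 in KO cells, against 1040 to 1315 in WT cells (all below, 4.10% of all probe sets). Taf7l had 247 to 297, against 9.18 to 91.5 (all above, 5.30% of all), and so had the dim Tdrd1 and Tuba3b all KO arrays above. Smc1b, Sycp3 and Hormad1 overlapped. The second Dazl probe set (1449502_at) passed at day 4 (limma adjusted p = 0.0371), and leaving out single arrays ended that call in 12 of 16 fits.

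**Figure D5:**
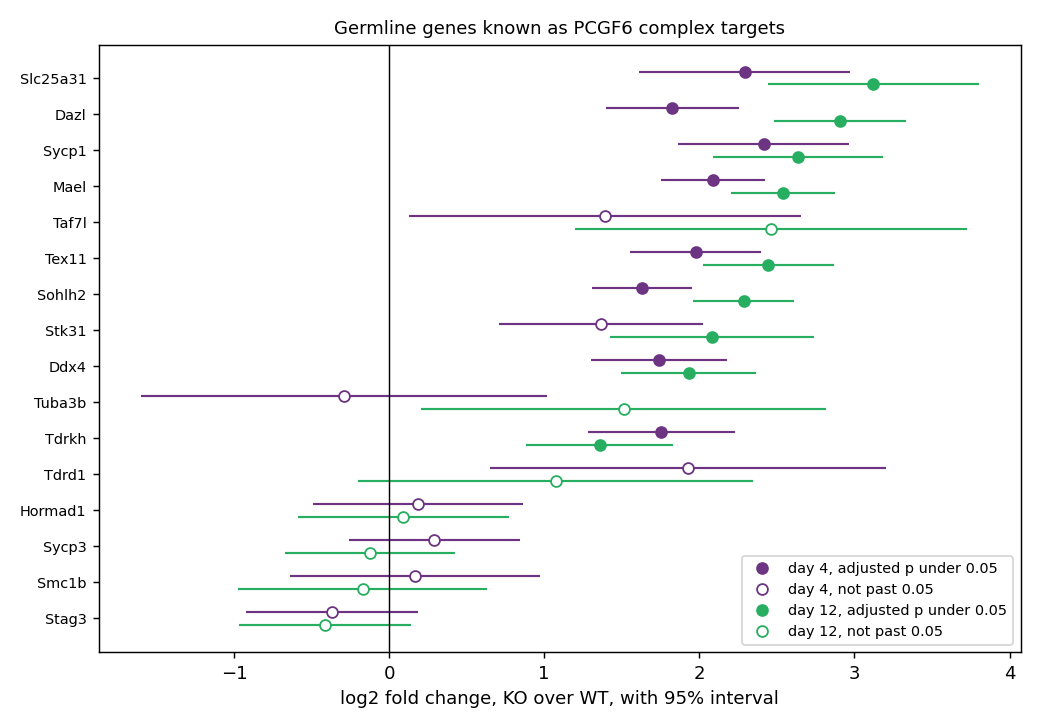
Log2 fold change of KO over WT with 95% intervals for the brightest probe set of each of the 16 germline genes, at day 4 (purple) and day 12 (green). Filled points passed a limma adjusted p of 0.05. Mael, Slc25a31, Dazl, Sycp1, Tex11, Sohlh2, Ddx4 and Tdrkh are filled on both days, and Stag3, Smc1b, Sycp3 and Hormad1 lie near or below 0.

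The promoters of 3 of these genes are shown because they hold the E-box CACGTG that MGA and MAX are known to bind. Each is the 250 bases before the gene's start, 5′ to 3′ on the gene's strand, from RefSeq (GRCm38.p6), with matches in capitals. They are Mael at chr1:166238745-166238994 (minus strand), Slc25a31 at chr3:40708621-40708870 (plus strand) and Ddx4 at chr13:112652311-112652560 (minus strand).
Mael: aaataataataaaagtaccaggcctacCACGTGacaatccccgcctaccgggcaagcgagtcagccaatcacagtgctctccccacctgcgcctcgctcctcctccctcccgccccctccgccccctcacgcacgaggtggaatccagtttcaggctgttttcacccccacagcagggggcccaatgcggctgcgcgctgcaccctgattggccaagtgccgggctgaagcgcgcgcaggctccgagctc
Slc25a31: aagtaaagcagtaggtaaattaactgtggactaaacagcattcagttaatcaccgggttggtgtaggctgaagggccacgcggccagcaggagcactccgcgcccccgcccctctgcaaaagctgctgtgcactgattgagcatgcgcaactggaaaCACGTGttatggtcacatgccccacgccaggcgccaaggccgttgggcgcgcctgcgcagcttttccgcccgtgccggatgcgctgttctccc
Ddx4: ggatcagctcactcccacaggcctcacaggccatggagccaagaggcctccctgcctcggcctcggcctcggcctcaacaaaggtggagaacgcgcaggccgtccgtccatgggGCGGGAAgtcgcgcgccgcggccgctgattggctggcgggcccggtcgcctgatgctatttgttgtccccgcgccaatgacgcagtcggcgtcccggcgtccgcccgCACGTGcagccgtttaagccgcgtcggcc

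The E-box begins 223 bases before the start of Mael, 93 before that of Slc25a31 and 29 before that of Ddx4. Ddx4 also holds the core of the E2F6 site, TTCCCGC, read here on the other strand as GCGGGAA and beginning 136 bases before the start. Both motifs were sought on both strands, and a match to one can share only an end base with a match to the other. CACGTG lay in 13 of the 22 windows of the germline genes (10 of 17 genes with a window), beside 6.02% of all 32851 windows (1854 of 27025 genes). TTCCCGC lay in 7 of the 22 windows (6 of 17 genes), beside 3.82% of all windows (1184 of 27025 genes). Hormad1, Stk31 and Tdrd1 have overlapping windows that hold the same sites, so these windows count them more than once. The list is of reported targets of factors that bind these motifs, so its shares are no independent evidence. Genes with the E-box were found among those that passed (Mael, Slc25a31, Ddx4, Sycp1, Stk31) and among those that did not (Stag3, Sycp3, Hormad1, Taf7l, Tdrd1). Genes whose windows lacked it were likewise found among those that passed (Dazl, Sohlh2, Tdrkh) and those that did not (Smc1b, Tuba3b). Of the 9 subunit genes with a window (15 windows), 0 held CACGTG and 1, Pcgf5, held TTCCCGC.

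The genes whose log2 pattern over the 16 arrays was most like that of each subunit were sought among 19685 brighter named probe sets. Only the brightest probe set of each subunit was used, and the candidates held no other subunit. E2f6 was most like Klhl22 (Pearson r = 0.963) and Ctr9 (0.950), and Mga most like Birc2 (0.915) and Enpp3 (0.906). L3mbtl2 was most like Wiz (0.972) and Btbd2 (0.961), Pcgf6 most like Gja1 (0.925) and Acaca (0.921), and Max most like Hax1 (0.905) and Hnrnpa1 (0.901). Kdm2b was most like Lasp1 (0.969) and Ube2g1 (0.955), Pcgf5 most like Yif1a (0.945) and Gyg (0.938), and Pcgf3 most like Map1lc3a (0.922) and Ccnf (0.920). The lowest values were those of Bcor, with Ascl2 (0.846) and Aebp2 (0.824), and of Pcgf1, with Atp6v1g1 (0.803) and Osbpl9 (0.791). Klhl22 had log2 fold changes of 0.48 and 0.89 (limma adjusted p = 0.706 and 0.0716). These correlations are descriptions over arrays that share clone, day and replicate number.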

How the data were processed

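Labelled cRNA made from total RNA was measured on 16 Affymetrix mouse arrays, 1 per sample. The deposited values are 1 linear intensity per probe set and array, made by the authors with RMA in Affymetrix Expression Console per the submitters' processing notes, with versions not given in the sources used here. The series' design text names a smaller array than the 45101 probe sets of the table. Gene symbols came from GEO's platform annotation, and 0 members' probe sets carried a second symbol. Detection calls were not used here. Precision is limited by how many arrays each group has.

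The test design allowed for log2 values, and the table proved linear, so intensities were log2-transformed with no offset, and 64 control probe sets were left out. limma 3.58.1 (R 4.3.3) fitted the 4 groups and the clone to 45037 probe sets on all 16 arrays, with empirical Bayes moderation and Benjamini-Hochberg adjustment. Errors of log2 values are SE, and those of intensities are SD. The fit was tested on simulated data. Contrasts were KO against WT at each day, their difference, day 12 against day 4 in each, and the clones. Alternatives were 1 probe set a gene, replicate blocks, a filter or floor at the 25th percentile (28.3), an offset of 50, trended robust moderation, leaving out each array, and each clone alone.

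KO and WT arrays that share clone, day and replicate number deviated together from their group means at day 4 (r = 0.128 to 0.139 over all probe sets, 4 pairs) and less at day 12 (0.027 to 0.053). Over the brighter probe sets r was 0.570 to 0.644 at day 4 and 0.251 to 0.432 at day 12. These values include the clone, which the arrays of a pair share. With the clone removed, r over all probe sets was 0.031 to 0.058 at day 4 and -0.073 to -0.029 at day 12. Over the brighter probe sets it was then 0.542 to 0.589 and 0.102 to 0.323. The correlation over all probe sets passed 0.1 at day 4 only, and only with the clone left in. Pairing is therefore unsettled, above all at day 12, and blocked values stand beside each result whose call they change.

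The members, gene lists and named genes were chosen with earlier results of these data known. All members are named, list genes where they passed a test or, with none called, the 2 with the lowest p, and for likeness the 2 genes with the highest correlation. Promoter windows and sequences came from RefSeq GRCm38.p6 tables, in which Pcgf1 and Tex11 had no window, and motifs were matched exactly.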

Additional observations from a re-analysis of the deposited data

Results flagged for a closer look

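In 3 of 96 sets of 4 arrays (24 probe sets in 4 groups), 1 array stood apart from the other 3 by Dixon's test, and chance gives this in about 1 in 20 groups. Pcgf3 1428423_at had 1506 in replicate 2 of clone 10 among the KO arrays at day 12, beside 1283 to 1312 in the other 3. The dim Pcgf5 1453636_at had 83.1 in replicate 1 of clone 10 among the KO arrays at day 4, beside 44.4 to 48.7 in the others. E2f6 1448835_at had 827 in replicate 2 of clone 15 among the WT arrays at day 12, beside 645 to 673 in the others, and this WT array was still below every KO array of that day.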

How the results depend on the processing

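The members' log2 fold changes between KO and WT cells were recomputed 1168 times under the alternatives. Of these, 1159 stayed on their side of the threshold, 9 moved past it, and 0 turned direction beyond 1 SE, while 53 values within 1 SE of 0 changed sign. For E2f6 1448835_at at day 12 the limma adjusted p was 0.0447 with 1 probe set a gene, 0.0192 with the 8 pairs as a block, 0.00198 with replicate number as a term, 0.0372 with the floor, 0.0433 with the offset and 0.0334 with trended moderation. Leaving out single arrays gave 0.62 to 0.75 with adjusted p-values of 0.0936 to 0.238. Replicate number as a term also took E2f6 at day 4 (0.0499), L3mbtl2 at day 12 (0.047) and Mga 1431232_a_at at day 12 (0.0271) past the threshold. With 1 probe set a gene and the 8 pairs as a block, E2f6 passed on both days (0.0488 and 0.00459) and so did Mga 1434746_at at day 12 (0.0425). This joint setting is not among the 1168 values, so its passes come on top of the 9. As the main fit called 0 members, no call could be lost.

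Counts of called probe sets over the whole table follow, in the order KO against WT at day 4, at day 12, then day 12 against day 4 in KO and in WT cells, beside 109, 546, 548 and 181. Replicate number as a term gave 259, 2258, 3326 and 2177, the floor 272, 1136, 1586 and 686, the offset 194, 899, 1142 and 343, and trended moderation 167, 842, 1212 and 421. The filter gave 970 and 294 between days. Clone 10 alone gave 6, 18, 0 and 0, and clone 15 alone 1, 1, 0 and 0. The difference of the KO effect between days was 0, and 1 with replicate number as a term. The replicate block of 8 pairs gave 1034 calls at day 12, 92 at day 4, and 182 in KO and 46 in WT cells between days. The pairing is unsettled, above all at day 12. Same-numbered arrays of a clone correlated best with each other in 7 of 8 pairs, a hint from the data and not from the labels. The clone, which they share, was not removed there.

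Between clones, the difference of the KO effect at day 4 (1) and day 12 (0) became 0 at day 4 with 1 probe set a gene, the offset or trended moderation, 11 and 1 with the floor, and 2 at day 12 with trended moderation. Clone 15 against clone 10 in WT cells at day 4 (4) and day 12 (0) became 9 and 6 with the filter, 26 and 14 with the floor, and at day 12 it became 5 with 1 probe set a gene, 3 with the offset and 6 with trended moderation. Leaving out single arrays gave 62 to 104 (KO against WT, day 4), 261 to 494 (day 12), 0 to 1 (their difference), 262 to 484 (KO between days), 78 to 157 (WT between days), 0 to 1 and 0 to 3 (KO effect between clones) and 0 to 41 and 0 to 8 (clones in WT). At day 4 the fall to 62 came without KO clone 15 replicate 1. The day 12 count moved by over 1.5 times without any day 12 array other than WT clone 15 replicate 1. The KO count between days did so without any KO array other than day 4 clone 15 replicate 1, and the WT count without any WT array other than the day 4 replicates 1, and without KO day 12 clone 15 replicate 2. The single-clone and leave-out fits hold fewer arrays, and the cause was not tested for the others. Dim probe sets have wide intervals, and no detection limit could be set without detection calls.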
